A study of Mus musculus with 6 samples.

Results

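The genes of leukotriene and platelet activating factor (PAF) metabolism were taken from a study of cultured microglia, the macrophages that live in the brain. They are Pla2g4a, Alox5, Alox5ap, Lta4h, Ltc4s, Cysltr1, Ltb4r1, Ptafr and Pla2g7, taken by symbol for their known roles in these pathways. All 9 were found among 48005 gene entries, and none of them lies in an entry that joins several genes. Of the 9, 8 passed the filter on low counts with 16605 entries in all, and Ltb4r1 did not.

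The study compared 3 EV-treated with 3 control samples of microglia from mice of the outbred CD1 stock. The EV-treated samples were given extracellular vesicles (EVs), small membrane-bound particles shed by cells, which had been spun down in steps from cultures of neural stem cells of the subventricular zone of CD1 mice. The control samples received a control treatment that the labels do not describe further, and neither the dose and duration of the EV treatment nor the age and sex of the animals is stated. No label says that samples of the same group are from separate cultures or animals, so the p-values measure only how far these 6 samples spread, and that spread may be technical. The labels name the libraries by group and by the letters A, B and C.

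Leukotrienes and PAF are short-lived lipid signals that attract and activate leukocytes. Cytosolic phospholipase A2 (Pla2g4a) cuts membrane phospholipids, which frees arachidonic acid and leaves the lysolipid from which PAF can be made. 5-lipoxygenase (Alox5), with the membrane protein FLAP (Alox5ap) presenting the fatty acid, turns arachidonic acid into leukotriene A4, which Lta4h hydrolyses to leukotriene B4 and Ltc4s joins to glutathione to give leukotriene C4. Ltb4r1 and Cysltr1 are receptors for leukotriene B4 and for the cysteinyl leukotrienes, Ptafr is the receptor for PAF, and Pla2g7 is the secreted acetylhydrolase that breaks PAF down. Cells of the myeloid lineage, to which microglia belong, are the main makers of 5-lipoxygenase.

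In EV-treated microglia the mRNA of 5-lipoxygenase, FLAP and leukotriene C4 synthase fell to levels 6.62 to 9.46 times lower than in control microglia. The PAF receptor fell as well, by 0.96 on the log2 scale. The PAF acetylhydrolase Pla2g7 rose 2.63-fold and the phospholipase Pla2g4a rose 1.76-fold. Lta4h and Cysltr1 did not pass the test. In all, 2 genes rose, 4 fell and 2 were not past the threshold, where a call means an adjusted p under 0.05 from edgeR's quasi-likelihood test with Benjamini-Hochberg adjustment over all 16605 entries. Calls were frequent across the whole table, at 66.5% of the entries tested, with 33.0% higher and 33.5% lower in EV-treated libraries, so 6 calls of 8 is a share near that background. The median log2 fold change was -0.36 over the 8 genes and -0.02 over all entries tested. The sizes of the 3 deepest falls were less frequent: 5.16% of all entries were called with a log2 fold change of -2.5 or lower. That bound was not part of the planned tests, and the genes were chosen with earlier results of these data known. The share therefore describes the size of these falls and tests nothing about the set.

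**Figure D1:**
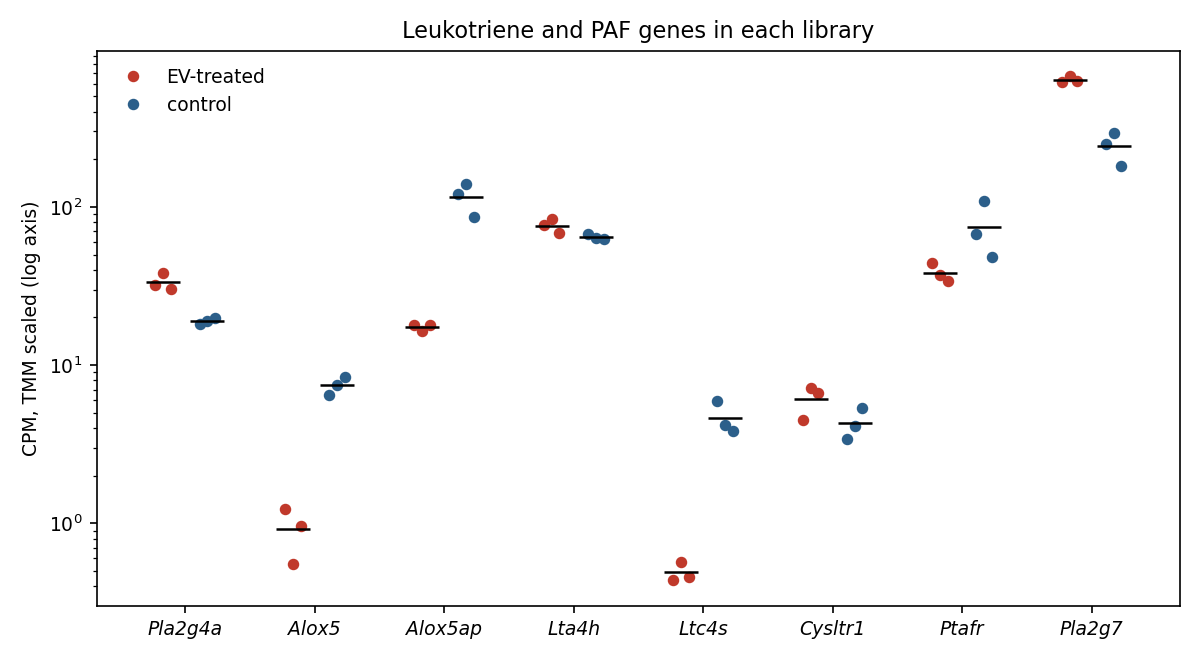
Level (CPM, TMM scaled, log axis) of the 8 tested genes in each library, with EV-treated libraries in red, control libraries in blue, each point a library and each bar a group mean (n = 3). EV-treated libraries lie below control libraries for Alox5, Alox5ap, Ltc4s and Ptafr and above them for Pla2g4a, Lta4h and Pla2g7, and the groups overlap for Cysltr1.

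Levels are given as CPM, counts per 1000000 counts of TMM-scaled library size. The libraries held 133112063 to 142805303 counts in EV-treated samples and 109744701 to 162544804 in control samples, summed over exon bins. A read that touches several bins may be counted in each, so a gene's sum is not a number of distinct reads. Log2 CPM correlated at 0.985 to 0.993 within groups and at 0.87 to 0.878 between them. The 10 general macrophage and microglia markers were all tested, 1 of them rose and 6 fell, and their summed level was 6761 to 7133 CPM in EV-treated and 9284 to 11082 CPM in control libraries. The log2 ratio of the summed counts of Ddx3y, Eif2s3y, Kdm5d and Uty on the Y chromosome over those of Xist on the X chromosome, each sum plus 1 count (Y/X ratio), was 10.92 to 11.22 in EV-treated and 12.13 to 12.83 in control libraries, so it separated the groups. In every library the Y-linked sum was far above that of Xist. The part of the ratio in the results was not tested apart from a fit with it as a covariate. The values of that fit are given beside each gene whose call it ends. Since the ratio separated the groups, that fit cannot well tell it apart from the treatment. In bulk RNA, fewer cells expressing a gene and less RNA per cell cannot be told apart.

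Promoters are shown for 3 genes of large or opposite change, Alox5 and Ltc4s among those that fell and Pla2g7 among those that rose, because the exon bins at their starts carried the counts described further on. Each sequence runs from 250 bases before to 50 bases after the gene's start, is taken from RefSeq on GRCm38.p6 and is written on the gene's own strand. Capitals mark matches, on either strand, to GGGCGG (a GC box, to which Sp-family factors bind) or to GAGGAA (a core of sites for the ETS factor PU.1). The Alox5 promoter is chr6:116461129-116461428, minus strand, that of Ltc4s is chr11:50238483-50238782, minus strand, and that of Pla2g7 is chr17:43568201-43568500, plus strand.
Alox5: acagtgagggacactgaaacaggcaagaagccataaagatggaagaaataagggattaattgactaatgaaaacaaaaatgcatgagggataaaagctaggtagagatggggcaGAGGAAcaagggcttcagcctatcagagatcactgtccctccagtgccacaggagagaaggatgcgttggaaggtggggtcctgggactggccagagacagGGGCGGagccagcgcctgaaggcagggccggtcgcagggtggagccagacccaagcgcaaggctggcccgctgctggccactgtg
Ltc4s: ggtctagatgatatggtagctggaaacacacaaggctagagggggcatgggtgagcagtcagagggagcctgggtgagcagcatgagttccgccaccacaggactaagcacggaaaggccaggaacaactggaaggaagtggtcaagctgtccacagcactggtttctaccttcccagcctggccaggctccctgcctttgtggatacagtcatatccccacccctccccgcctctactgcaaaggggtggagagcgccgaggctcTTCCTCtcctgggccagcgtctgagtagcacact
Pla2g7: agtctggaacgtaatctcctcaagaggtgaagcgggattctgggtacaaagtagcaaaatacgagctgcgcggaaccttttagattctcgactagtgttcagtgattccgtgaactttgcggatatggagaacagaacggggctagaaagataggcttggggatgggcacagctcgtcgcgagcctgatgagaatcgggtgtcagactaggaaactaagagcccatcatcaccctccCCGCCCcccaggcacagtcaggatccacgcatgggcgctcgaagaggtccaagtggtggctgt

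The Alox5 window held GAGGAA beginning 136 bases before the start and GGGCGG beginning 35 bases before it. The Ltc4s window held GAGGAA on the opposite strand, 16 bases after the start, and no GGGCGG. The Pla2g7 window held GGGCGG on the opposite strand, 13 bases before the start, and no GAGGAA. Among 32851 promoters of the same length, 35.7% held GGGCGG and 28.3% held GAGGAA. No window of the 7 genes with an entry in the promoter table held the AP-1 motif TGANTCA, the hypoxia element core ACGTG or the kB consensus, which 7.81%, 19.6% and 4.51% of all promoters held. The motifs searched do not overlap each other in these windows. Among the other genes, Lta4h held GAGGAA, Ptafr held both GAGGAA and GGGCGG, as did Ltb4r1, and Pla2g4a held neither in its 2 promoters, one of which held TATAAA, found in 13.6% of all promoters. Alox5ap and Cysltr1 were not matched. These matches describe letters in the windows and show no binding.

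Pla2g4a, at the head of the pathway, is a gene of 28 exon bins on mouse chromosome 1 (149829618-149961290, minus strand, GRCm38). It had 4002, 4325 and 3898 counts in EV-treated A, B and C, against 2390, 2404 and 3769 in control A, B and C. Scaled for library size the groups did not overlap, with 33.6 ± 3.95 CPM in EV-treated and 19.0 ± 0.929 CPM in control libraries (SD, n = 3 each). Pla2g4a rose by 0.82 ± 0.11 on the log2 scale (SE; adjusted p = 1.48e-04, edgeR). With the Y/X ratio as a covariate the value was 0.40 and the call was lost (adjusted p = 0.564, edgeR). The size also depended on the scaling, at 0.45 with library totals alone, which moved the median of all entries to -0.38. It depended on the counting too, at 1.31 from the bin with the most counts. Both values were still called. The phospholipase change was of ordinary size for this comparison, since 49.45% of the entries tested had a larger absolute log2 fold change.

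Alox5, the enzyme that starts leukotriene synthesis, is on chromosome 6 (116410077-116461178, minus strand) with 29 exon bins. EV-treated A, B and C held 153, 63 and 124 counts, against 857, 949 and 1591 in control A, B and C. No EV-treated library reached the lowest control library, although the EV-treated libraries spread widely among themselves, with B the lowest. The level was 0.919 ± 0.343 CPM in EV-treated and 7.47 ± 0.968 CPM in control libraries (SD, n = 3 each), 8.11 times lower in EV-treated cells. Alox5 fell by 3.02 on the log2 scale (SE 0.27; adjusted p = 6.90e-06, edgeR), a size that 9.91% of all entries tested exceeded.

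Alox5ap encodes FLAP, without which intact cells make little leukotriene. The gene is on chromosome 5 (149264767-149288153, plus strand) and had 2229, 1879 and 2298 counts in EV-treated A, B and C, against 15966, 17666 and 16339 in control A, B and C. The EV-treated libraries lay close together at 17.5 ± 0.838 CPM, far under the control libraries at 116 ± 26.7 CPM (SD, n = 3 each). Alox5ap fell by 2.73 on the log2 scale (SE 0.17; adjusted p = 5.91e-07, edgeR). It shares 189 bases of exon with the antisense gene Gm19719, whose log2 fold change was -2.63, and no source used here gives the strand setting of the counting. With the shared bins left out, Alox5ap stood at 1503, 1285 and 1574 counts in EV-treated libraries and 11085, 12221 and 11180 in control libraries, and its log2 fold change was -2.75.

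Ltc4s, the glutathione conjugating enzyme of the cysteinyl branch, is a small gene on chromosome 11 (50236469-50238616, minus strand, 736 exon bases). Its counts were 54, 65 and 59 in EV-treated A, B and C, against 778, 529 and 721 in control A, B and C. Every EV-treated library was far below every control library, with means of 0.489 ± 0.0721 CPM in EV-treated and 4.63 ± 1.12 CPM in control libraries (SD, n = 3 each). Ltc4s fell by 3.24 on the log2 scale (SE 0.24; adjusted p = 1.69e-06, edgeR), the deepest fall of the 8 genes. The value was -3.35 without the bins shared with the antisense gene Gm26542, and -2.23 with the Y/X ratio as a covariate, where the call was lost (adjusted p = 0.0609, edgeR).

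Lta4h, the hydrolase of the leukotriene B4 branch, was not among the genes called. The gene is on chromosome 10 (93453411-93484875, plus strand) and had 9476, 9576 and 8715 counts in EV-treated A, B and C, against 8893, 8078 and 11894 in control A, B and C. Its level was 76.2 ± 8.07 CPM in EV-treated and 64.7 ± 2.40 CPM in control libraries (SD, n = 3 each). The groups just failed to overlap on this scale, yet the log2 fold change of 0.24 ± 0.11 (SE) did not pass the test (adjusted p = 0.0769, edgeR). The direction depended on the scaling, since library totals alone gave -0.13. DESeq2 called Lta4h, with a log2 fold change of 0.26 (adjusted p = 0.0443), and edgeR called it without EV-treated C, at 0.30 (adjusted p = 0.0282).

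**Figure D2:**
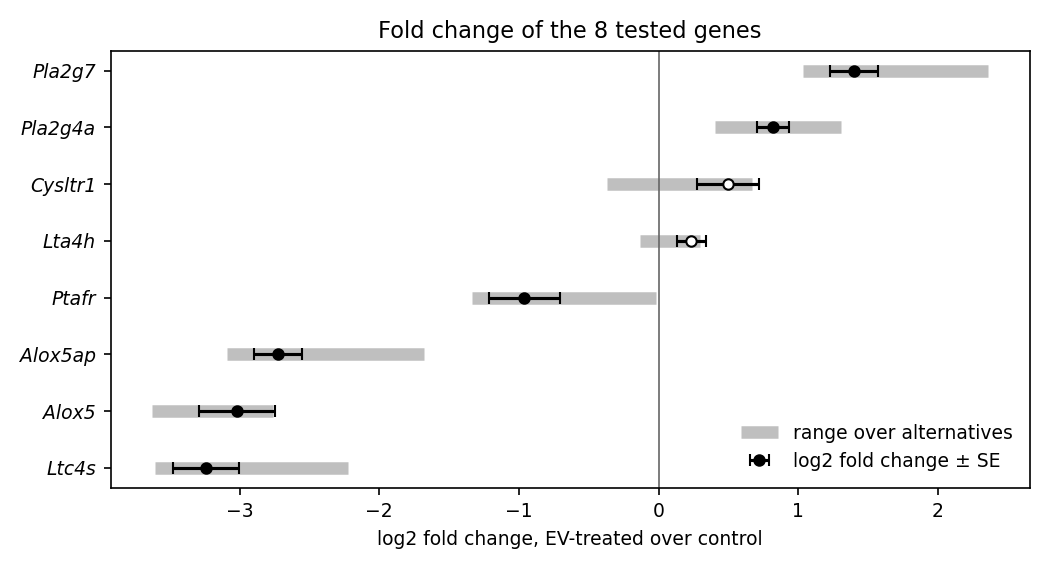
Log2 fold change of the 8 tested genes, EV-treated over control, with SE bars (n = 3 each), filled where the adjusted p was under 0.05, and grey bars for the range over 18 alternative analyses. Ltc4s, Alox5 and Alox5ap lie at -3.24, -3.02 and -2.73, and the grey bars of Lta4h and Cysltr1 cross 0.

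Of the receptors, Ptafr, which binds PAF, is on chromosome 4 (132564067-132582683, plus strand). It had 5436, 4250 and 4360 counts in EV-treated A, B and C, against 8859, 13821 and 9108 in control A, B and C. The EV-treated libraries were the lower 3, and the control libraries spread most, with B the highest. Ptafr had 38.4 ± 5.0 CPM in EV-treated and 74.8 ± 31.0 CPM in control libraries (SD, n = 3 each), and fell by 0.96 on the log2 scale (SE 0.25; adjusted p = 0.00722, edgeR). Without control B the log2 fold change was -0.61 and still called (adjusted p = 0.00956, edgeR). With the Y/X ratio as a covariate it was -0.015 and the call was lost (adjusted p = 0.995, edgeR).

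Cysltr1, the receptor with the higher affinity for leukotriene D4, is on the X chromosome (106574346-106603679, minus strand). It had 555, 820 and 853 counts in EV-treated A, B and C, against 451, 527 and 1016 in control A, B and C. The groups overlapped, since EV-treated A had 4.48 CPM and control C had 5.39 CPM. The log2 fold change was 0.50 ± 0.22 (SE) and did not pass the test (adjusted p = 0.0730, edgeR). It passed at 0.66 without EV-treated A (adjusted p = 0.0270) and at 0.67 without control C (adjusted p = 0.0268), both edgeR. With the Y/X ratio as a covariate its sign turned, at -0.37 (adjusted p = 0.786, edgeR).

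Ltb4r1, the high-affinity receptor for leukotriene B4 on chromosome 14 (55765962-55768494, plus strand), was at the limit of detection. It had 0, 0 and 0 counts in EV-treated libraries and 2, 3 and 2 in control libraries, all at or under the floor of 3 counts per library, so no fold is given. That floor corresponds to 0.0247 CPM on average in EV-treated and 0.0208 CPM in control libraries, for counting error only. In a fit with no filter, Ltb4r1 was not called (adjusted p = 0.133, edgeR).

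Pla2g7, the PAF acetylhydrolase, is on chromosome 17 (43568098-43612201, plus strand) and was the most abundant of the genes per length in EV-treated libraries. It had 76227, 76426 and 80257 counts in EV-treated A, B and C, against 33080, 37349 and 34126 in control A, B and C. All EV-treated libraries were above all control libraries, at 638 ± 29.9 CPM in EV-treated and 242 ± 57.1 CPM in control libraries (SD, n = 3 each). Pla2g7 rose by 1.40 ± 0.17 on the log2 scale (SE; adjusted p = 6.10e-05, edgeR). The value was 1.42 without the bins that overlap the antisense gene 1700071M16Rik. With the Y/X ratio as a covariate the log2 fold change of Pla2g7 was 2.36 (adjusted p = 0.0282, edgeR). Alox5 and Alox5ap, the other genes still called in that fit, stood at -3.62 (adjusted p = 0.0224) and -1.68 (adjusted p = 0.0495), both edgeR. Alox5ap was thus barely under the threshold. The separation of the groups seen in 7 of the 8 tested genes, all but Cysltr1, was met by 71.3% of all entries tested.

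The order of the genes by level per kilobase of exon differed between the groups. In EV-treated libraries Pla2g7 came first with a mean of 219.6 CPM per kilobase, followed by Lta4h at 12.5, Alox5ap at 12.3 and Ptafr at 10.6. Of these, neighbours among the last 3 overlapped over libraries. Pla2g4a at 5.26, Cysltr1 at 1.19, Ltc4s at 0.665, Alox5 at 0.224 and Ltb4r1 at 0 CPM per kilobase followed, each clear of the next. In control libraries Pla2g7 at 83.3 and Alox5ap at 81.5 CPM per kilobase overlapped at the top. Ptafr at 20.6, Lta4h at 10.6, Ltc4s at 6.29, Pla2g4a at 2.98, Alox5 at 1.82, Cysltr1 at 0.840 and Ltb4r1 at 0.0118 CPM per kilobase came after them without overlap. Alox5ap and Pla2g7 mRNA thus overlapped in level in control microglia, and did not in EV-treated microglia. When 149 bases were added to each bin's length, since a read of 150 bases can count in several bins, 6 of the 9 genes kept their place in EV-treated and 7 of 9 in control libraries. On that scale Ltc4s overlapped Pla2g4a and Alox5 overlapped Cysltr1 in control libraries, where Alox5ap stood above Pla2g7 with overlap. In EV-treated libraries Ptafr then came next after Pla2g7, at 9.77, clear of Lta4h at 7.21 and Alox5ap at 5.72.

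Along the genes, the change in group means was shared by the exon bins, although single EV-treated libraries varied in profile for Ltc4s and Alox5. Of the Alox5 bins with at least 10 counts over all libraries, 25 of 25 had a lower mean CPM in EV-treated than in control libraries, as did 8 of 8 for Alox5ap, 9 of 9 for Ltc4s and 2 of 2 for Ptafr. The mean was higher in EV-treated libraries in 24 of 24 bins of Pla2g4a, in 24 of 24 bins of Pla2g7, in 6 of 6 bins of Cysltr1 and in 25 of 30 bins of Lta4h. Bins of a gene share reads, so these counts describe the profile and are no repeats of the test.

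The bins that hold the RefSeq starts of Alox5, Ltc4s and Pla2g7 changed in the same direction as their genes. The first bin of Lta4h went the other way from its gene, and its counts are given below with the bin usage. The first bin of Alox5, which begins at the RefSeq start, had 0, 1 and 1 counts in EV-treated and 8, 9 and 9 in control libraries. The Ltc4s bin that begins at the RefSeq start held 3, 4 and 0 counts in EV-treated and 33, 20 and 31 in control libraries, and the bin upstream of that start held 0, 0 and 2 in EV-treated and 2, 0 and 0 in control libraries. For Pla2g7 the bin that spans the RefSeq start held 240, 278 and 221 counts in EV-treated and 77, 74 and 81 in control libraries. That was a small part of the gene, 0.317% of its counts in EV-treated and 0.222% in control libraries. Bin 7 from the 5′ end, further downstream and 72 bases long, took 5.66% and 6.30%. The bin upstream of that start held 72, 56 and 73 counts in EV-treated and 11, 18 and 23 in control libraries. Where Pla2g7 transcripts begin was not tested.

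Bin usage, the share of a gene's counts that each bin takes, was tested with edgeR's diffSpliceDGE. None of the bins of the 8 genes was called (adjusted p of 0.0606 or higher), where 3.64% of the bins and 19.1% of the gene entries tested were called over the whole table. The bin with the lowest adjusted p was the first 40 bases of Lta4h, with 66, 37 and 38 counts in EV-treated and 102, 73 and 80 in control libraries. It was called without EV-treated A (adjusted p = 0.0226) and without control C (adjusted p = 0.0258), both edgeR. Low counts limit this test for Ltc4s, where bin 7 from the 5′ end held 4, 6 and 18 counts in EV-treated libraries and 101, 78 and 106 in control libraries.

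**Figure D3:**
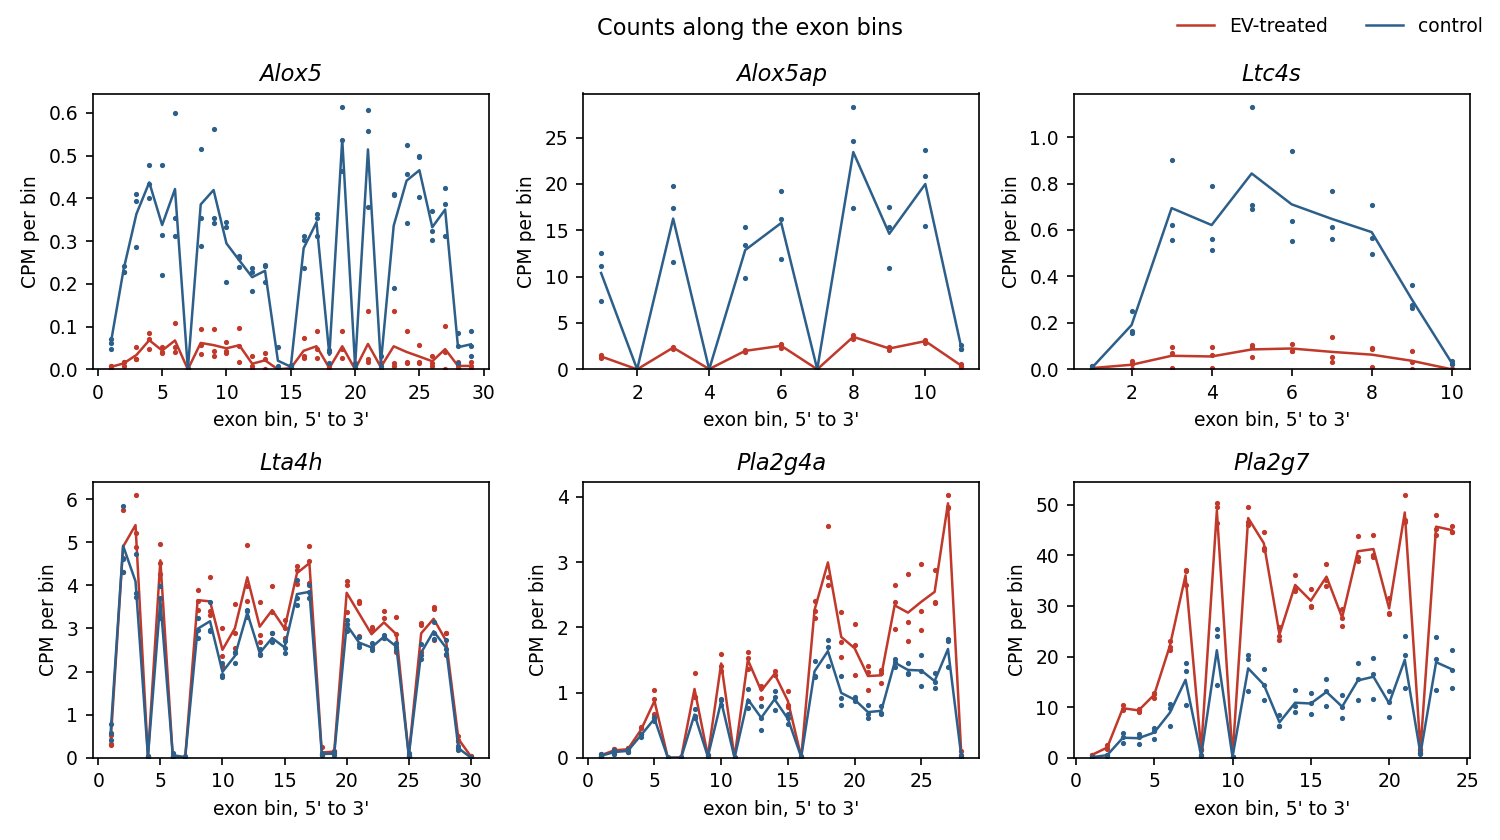
Mean CPM per exon bin (lines) and each library (points) along 6 genes, bins numbered from the 5′ end, EV-treated in red and control in blue. The EV-treated line runs under the control line in all 25 Alox5 bins with at least 10 counts, and over it in all 24 such bins of Pla2g4a and of Pla2g7.

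Beyond the 9 genes, 72 other entries of the same pathways were examined by list. Of these 57 were tested, 17 rose, 26 fell and 14 were not past the threshold, with a median log2 fold change of -0.40. The share called, 43 of 57, stands beside 66.5% over all entries. Values for named genes are log2 fold changes, EV-treated over control, called at an adjusted p under 0.05 with edgeR.

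Of 17 other phospholipase A2 entries, 10 were tested, 2 rose and 2 fell, with a median of -0.15. The rises were Pla2g5, a secreted phospholipase, at 5.69, with 21.6 ± 2.22 CPM in EV-treated and 0.419 ± 0.183 CPM in control libraries (SD, n = 3 each), and the entry that joins Pla2g4b with Jmjd7 at 0.65. The falls were Pla2g16, a phospholipase known from fat tissue, at -1.79, and Pla2g15, the lysosomal phospholipase, at -0.40.

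Of 24 other leukotriene and lipoxygenase entries, 17 were tested, 4 rose and 8 fell, with a median of -0.64. Mgst2 and Mgst3, relatives of Ltc4s and Alox5ap in the same family of membrane proteins, fell by 3.63 and 3.27 on the log2 scale. Mgst3 had 2.91 ± 0.466 CPM in EV-treated and 28.0 ± 4.98 CPM in control libraries (SD, n = 3 each). Dpep3, a dipeptidase, also fell, with 1, 2 and 3 counts in EV-treated A, B and C, at or under the floor of 3 counts, against 92, 129 and 189 in control A, B and C. Among the rises were Abcc1, the transporter that exports leukotriene C4, at 1.37, and Alox12, a 12-lipoxygenase, at 4.78. Ggt1, which removes glutamate from leukotriene C4, rose to 0.860 CPM in EV-treated libraries, against 0.0106 CPM in control libraries, a level that rests on 6 counts in 1 control library. The receptors Cysltr2 and Gpr17 did not pass the test, and Ltb4r2 had too few counts to be tested.

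All 12 genes of PAF remodelling and breakdown were called, 6 in each direction, with a median of 0.04. Lpcat2, the acetyltransferase that makes PAF in activated macrophages, fell by 1.04, with 46.2 ± 1.82 CPM in EV-treated and 94.9 ± 13.7 CPM in control libraries (SD, n = 3 each). Lpcat1, of the same family, went the other way and rose by 0.90, to 156 ± 5.06 CPM in EV-treated libraries, against 83.5 ± 20.1 CPM in control libraries (SD, n = 3 each). Lpcat3 and Lpcat4, acyltransferases of other lysophospholipids, stood at -0.95 and -1.85. Pafah1b3, a catalytic subunit of the intracellular acetylhydrolase, rose by 1.42, Cept1, a transferase of the last step of phospholipid synthesis, by 0.81, and Plbd1, a phospholipase B-like protein, by 5.45. The other Pafah genes were mixed, with Pafah1b1 at 0.36, Pafah1b2 at -0.28 and Pafah2 at -0.50.

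Of 9 kinases known to phosphorylate cytosolic phospholipase A2 or 5-lipoxygenase, 2 rose and 5 fell, with a median of -0.31. Mapkapk2, which phosphorylates 5-lipoxygenase, rose by 2.14 to 623 ± 27.5 CPM in EV-treated libraries, against 141 ± 7.70 CPM in control libraries (SD, n = 3 each). Mapk14, the p38 kinase upstream of Mapkapk2, stood at -1.44, Mknk1 at -1.49 and Camk2d at -0.93.

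The cyclooxygenase branch, which competes for the same arachidonic acid, had 9 of 10 genes tested, of which 3 rose and 5 fell, with a median of -0.81. Ptgs2 and Ptges rose by 10.65 and 8.01 and Ptges3 by 0.71, while Hpgd, Ptgs1 and Tbxas1 stood at -6.51, -2.96 and -2.30.

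**Figure D4:**
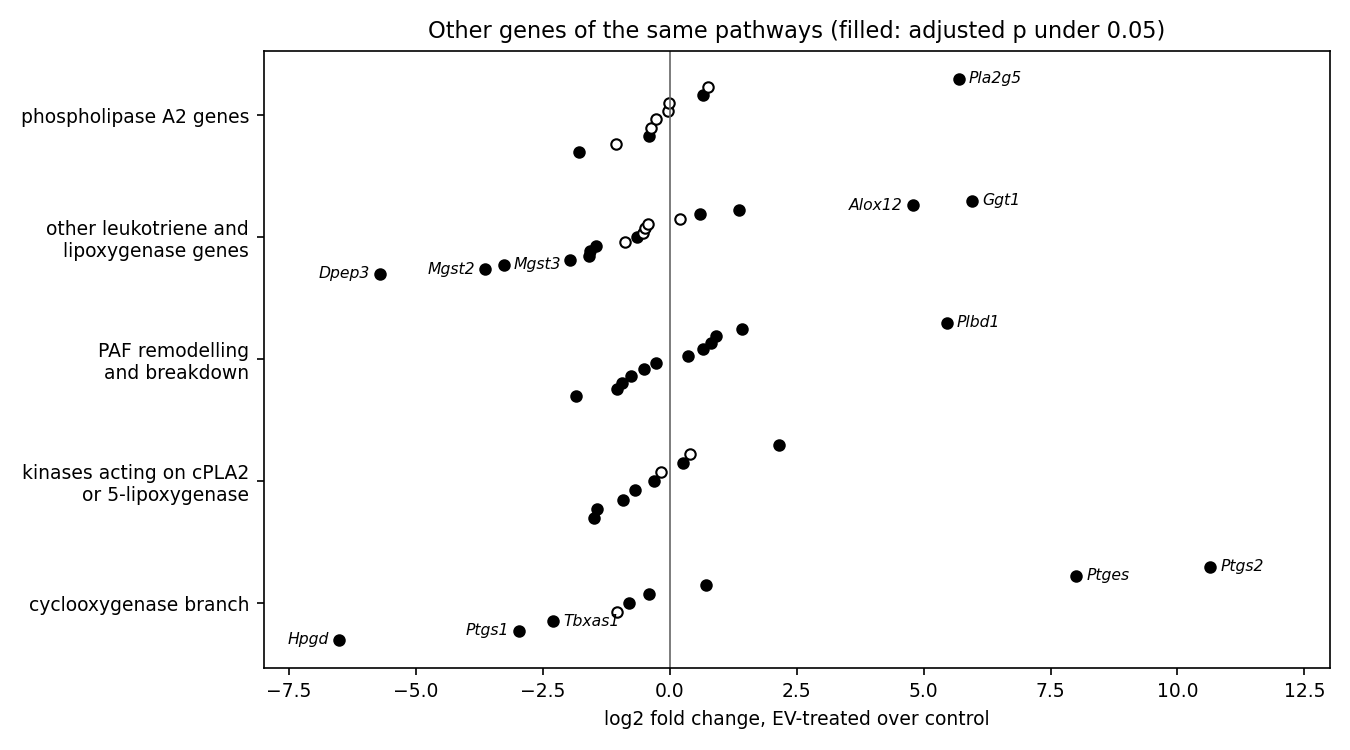
Log2 fold change, EV-treated over control, of the 57 tested entries of the pathway lists, 1 point an entry, filled where called, with named genes beyond a log2 fold change of about 2 labelled. Pla2g5 at 5.69, Alox12 at 4.78, Ptges at 8.01 and Ptgs2 at 10.65 lie far to the right, and Mgst3 at -3.27, Mgst2 at -3.63 and Hpgd at -6.51 to the left.

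By the distance of log2 CPM centred over the 6 libraries, the list gene nearest to each of the 8 tested genes was found. Ltc4s was nearest to Mgst3 (distance 0.388), as was Alox5ap (0.814), and Alox5 was nearest to Ptgs1 (0.812). Pla2g4a was nearest to Cept1 (0.0753) and Pla2g7 to Pafah1b3 (0.136). Lta4h was nearest to Pafah1b1 (0.224), Cysltr1 to the entry that holds Pla2g4b (0.450) and Ptafr to Camk2d (0.802). With 3 libraries a group, likeness over these libraries is mostly a like difference between the groups.

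Alox5 and Ltc4s are also made by granulocytes and mast cells, and markers of these and other cell types were read. The 8 mast cell markers summed to 0.0703 to 0.273 CPM in EV-treated and 0.0394 to 0.0759 CPM in control libraries, and none was tested. Kit had 13, 5 and 35 counts in EV-treated and 0, 1 and 5 in control libraries. Tpsab1 had 0, 0 and 0 counts in EV-treated and 6, 0 and 6 in control libraries, and Cma1 0, 0 and 0 against 0, 4 and 0. Cpa3, Mcpt4, Tpsb2, Ms4a2 and Mrgprb2 were at or near 0 in every library. The 6 eosinophil and basophil markers summed to 0.879 to 1.59 CPM in EV-treated and 7.87 to 18.5 CPM in control libraries. Of these nearly all came from Siglecf, which fell, as did Ccr3 (6, 2 and 5 counts in EV-treated and 13, 35 and 35 in control libraries), while Prg2, Epx and Il5ra were at or near 0. Mcpt8 had 15, 0 and 1 counts in EV-treated and 0, 0 and 0 in control libraries. The 10 neutrophil markers summed to 24.8 to 34.0 CPM in EV-treated and 1.69 to 3.57 CPM in control libraries, nearly all from S100a8, which rose. Camp rose as well (96, 102 and 81 counts in EV-treated and 1, 0 and 9 in control libraries), Cxcr2 fell (0, 6 and 4 counts in EV-treated and 44, 24 and 66 in control libraries), and Ly6g, S100a9, Elane, Ngp and Retnlg were at or near 0. Mpo had 8, 0 and 20 counts in EV-treated and 0, 2 and 0 in control libraries, and Ltf 1, 0 and 11 against 0, 0 and 3. Lists of neural cell types moved between the groups too. Oligodendrocyte lineage markers summed to 30.6 to 43.8 CPM in EV-treated and 213 to 440.3 CPM in control libraries, neural stem cell markers to 7.0 to 8.36 CPM in EV-treated and 56.1 to 98.2 CPM in control libraries, and astrocyte markers to 94.9 to 131 CPM in EV-treated and 14.9 to 20.4 CPM in control libraries. Each of these lists has 8 markers, not all of which were tested. Of 5 tested in the oligodendrocyte lineage, 1 rose and 2 fell. Among 5 tested for neural stem cells, 2 rose and 2 fell, and among 6 tested for astrocytes, 4 rose and 1 fell. Over all entries tested, 66.5% were called. Neuron markers summed to 2.2 to 2.70 CPM in EV-treated and 0.562 to 0.772 CPM in control libraries, lymphocyte markers to 0.145 to 0.448 CPM in EV-treated and 1.31 to 2.64 CPM in control libraries, and fibroblast and vessel wall markers to 17.0 to 24.9 CPM in EV-treated and 15.4 to 41.6 CPM in control libraries. What part any of these other cell types had in the results was not tested.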

How the data were processed

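RNA was extracted with Trizol and libraries were made with polyA selection and the NEBNext Ultra kit, per the labels' protocols. Trimmomatic 0.36, STAR, Subread, DESeq2 and the build GRCm38 are named in the submitters' processing notes, and no source used here gives the annotation release or the strand setting. The deposited values are raw counts per exon bin, per the file headers. Members and gene lists were chosen with earlier results of these data known.

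Counts were summed per gene entry, filtered with filterByExpr and scaled by TMM (factors 0.855 to 0.921 for EV-treated, 1.09 to 1.16 for control libraries). The main test was the quasi-likelihood F test of edgeR 4.0.16 (R 4.3.3), 2-sided, with Benjamini-Hochberg adjustment over 16605 entries and a threshold of 0.05. Each SE is the absolute log2 fold change over the root of its F value, and the common biological coefficient of variation was 0.174. CPM uses TMM library sizes, and log2 CPM a prior count of 2. Bin usage was tested with diffSpliceDGE over bins of at least 10 counts. Besides the 9 members, the text names up to 3 rising and 3 falling genes of each list with the smallest p. One kinase so taken is not reported. The receptors, Lpcat1, the other Pafah genes, the sequences and the markers named beside them were chosen after their values were seen. Gene symbols were found for 49298 of 49644 identifiers. Promoters came from RefSeq (7 of 9 members matched). The gene test and the bin usage test were tested on simulated data. The gene simulation changed 200 genes, in equal numbers up and down. In the real data 66.5% of the entries tested were called, so that simulation cannot show how the scaling behaves here. No libraries of a group held identical values, and each was counted as 1 sample. Python 3.11.15 with pandas 2.3.3, scipy 1.17.1 and matplotlib 3.10.9 was used.

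The alternatives changed the scaling (RLE, upper-quartile, totals alone), the filter (none, or 50 counts in 3 libraries as a minimum), the test (DESeq2 1.42.0, limma 3.58.1 with voom), the design (a block for the replicate letter, the Y/X ratio as a covariate), the counts (only the bin with most counts, only entries of 1 gene) and the samples (each library left out). Bins shared with another gene left out and bases added to each bin were chosen after seeing the data.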

Additional observations from a re-analysis of the deposited data

How the results depend on the processing

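Alox5, Alox5ap and Pla2g7 were called in the same direction under all 18 alternatives, with log2 fold changes of -3.62 to -2.76, -3.09 to -1.68 and 1.03 to 2.36, and Ltc4s, Pla2g4a and Ptafr under all but 1, the Y/X ratio as a covariate. The ratio separates the groups, and SEs were larger with it (0.83 for Alox5, against 0.27 without). Alox5ap was barely under the threshold in that fit (adjusted p = 0.0495, edgeR). With it, 2344 entries were called over the whole table (1329 rose, 1015 fell), 1 of the 9 genes rose and 2 fell, and 7 genes of the pathway lists rose and 7 fell. It gave log2 fold changes of -2.23 for Ltc4s, 0.40 for Pla2g4a, -0.015 for Ptafr and -0.37 for Cysltr1. Pla2g4a ranged from 0.40 to 1.31 over all alternatives, with 0.45 from library totals alone and 1.31 from the bin with the most counts, both called. Lta4h and Cysltr1 lay near the threshold. DESeq2 called both (0.26 and 0.52), so that 4 of the genes rose. The replicate block also called both (0.23 and 0.50), again with 4 rises. Same-letter samples deviated together with correlations of 0.035, 0.167 and 0.21, and samples of different letters with -0.199 to 0.0341. With so few samples these values cannot decide whether the letters pair the samples. No label says that they do, so the main test used no pairing. Lta4h was called with the stricter filter (0.26), and its sign turned with library totals alone (-0.13), a scaling that moved the median of all entries to -0.38 and the share of rises among calls to 34.0%, from 49.7% with TMM; upper-quartile scaling gave 44.1%. Cysltr1 was called from the bin with the most counts (0.66).

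With each library left out, Lta4h ranged from 0.16 to 0.30, called without EV-treated C, and Cysltr1 from 0.34 to 0.67. Ptafr ranged from -1.22 to -0.61, the smaller fall without control B, and was called throughout. Between 5665 (without control A) and 8642 bins were called over the whole table, and 0 to 1 bins of the genes. The order of levels held for 6 of 9 genes in EV-treated and 7 of 9 in control libraries when 149 bases were added to each bin. Depth limits Ltb4r1, and counts per bin limit Ltc4s and Alox5 along their length, since few reads stand behind each EV-treated library.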

Other observations

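Ratios of CPM between the genes within each library, 6 of them, were chosen after the values were seen, and cancel any scaling between libraries. Ltc4s over Lta4h, the enzymes that compete for leukotriene A4, was 0.00570, 0.00679 and 0.00677 in EV-treated and 0.0875, 0.0655 and 0.0606 in control libraries. Alox5 over Pla2g4a averaged 0.0282 ± 0.0122 in EV-treated and 0.392 ± 0.0319 in control libraries (SD, n = 3 each). Pla2g7 over Ptafr, the enzyme that breaks PAF down over its receptor, averaged 16.8 ± 2.42 in EV-treated and 3.39 ± 0.599 in control libraries (SD, n = 3 each). These 3 ratios did not overlap between the groups, and each had p = 0.1 in a 2-sided exact permutation test, the smallest that 3 against 3 samples allow (adjusted p = 0.2 over the 6 ratios). Alox5ap over Alox5 overlapped between the groups, at 14.6, 29.8 and 18.5 in EV-treated and 18.6, 18.6 and 10.3 in control libraries (exact permutation p = 0.6), as did Ltc4s over Alox5ap and Cysltr1 over Ptafr (exact permutation p = 0.2 each).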
